A study of Mus musculus with 9 samples.

Results

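The genes described here encode 9 routes by which sodium and calcium enter or leave brain cells. They are the acid-sensing channels Asic1, Asic2 and Asic4, the melastatin-type transient receptor potential (TRPM) channels Trpm2, Trpm4 and Trpm7, and the sodium-calcium exchangers Slc8a1, Slc8a2 and Slc8a3. They were taken by gene symbol from a fixed list, and all 9 were found among the 54532 genes of the deposited table. Brain cortex of male mice aged 8 to 12 weeks was sequenced from 3 inbred strains, with 3 mice of each: C57BL6/J (B6), C3H/HeJ (C3H) and WSB/EiJ (WSB). All were bred locally from Jackson Laboratory stock. The mouse reference genome comes from B6, C3H is likewise a classical laboratory strain, and WSB descends from wild mice. The study asked what protects brain tissue in ischemic stroke and looked here for expression that depends on strain. No arterial occlusion is described for the mice that gave this RNA, so the values are levels in cortex without a described stroke. Bulk tissue was measured, in which fewer cells of a type and less RNA per cell cannot be told apart.

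When blood flow stops, brain tissue turns acid, ATP falls, and sodium and calcium build up inside neurons. Acid-sensing channels open when protons bind outside the cell and pass mostly sodium, and channels made of the Asic1 product alone also pass some calcium. TRPM channels answer other signals of the same state: the Trpm2 channel opens with ADP-ribose and oxidative stress, the Trpm4 channel is opened by calcium inside the cell and passes sodium but not calcium, and the Trpm7 channel passes magnesium, calcium and zinc and carries its own kinase domain. Sodium-calcium exchangers normally export calcium in exchange for sodium, and can run backwards and import calcium once sodium has built up in the cell.

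On GRCm38 (the coordinates of the deposited table) Asic1 (ENSMUSG00000023017) lies on chromosome 15 from 99670368 to 99701130, Asic2 (ENSMUSG00000020704) on chromosome 11 from 80880169 to 81968457, and Asic4 (ENSMUSG00000033007) on chromosome 1 from 75450436 to 75474343. Trpm2 (ENSMUSG00000009292) lies on chromosome 10 from 77907722 to 77970563, Trpm4 (ENSMUSG00000038260) on chromosome 7 from 45302632 to 45333780, and Trpm7 (ENSMUSG00000027365) on chromosome 2 from 126791565 to 126876230. Slc8a1 (ENSMUSG00000054640) lies on chromosome 17 from 81388691 to 81649607, Slc8a2 (ENSMUSG00000030376) on chromosome 7 from 16129826 to 16161063, and Slc8a3 (ENSMUSG00000079055) on chromosome 12 from 81197915 to 81333180. Slc8a2 and Trpm4 share chromosome 7 and are 29.14 Mb apart. For 8 of the 9 genes these limits are the same in GENCODE M21. Slc8a1 is the exception. GENCODE M21 places it from 81373105 to 81738377, and the gene length of 2934 bases behind its deposited values is 15.6% of the 18807 exonic bases annotated there. Its level per kilobase therefore rests on a partial gene model and is not set against the other genes below.

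Promoter windows of 300 bases, most of each before an annotated start, were found in the RefSeq table of GRCm38.p6 for 7 of the 9 genes, not for Asic4 and Trpm4. Those of Slc8a2 and Trpm7 are printed because Slc8a2 was the only one of the 9 genes to pass the test between strains, and Trpm7 had the largest difference on the log2 scale in the values as deposited. Capitals mark matches on either strand to 5 short motifs, the GC box (GGGCGG), the CCAAT box (CCAAT), the E-box (CACGTG), the TATA box (TATAAA) and the core of the cyclic AMP response element (TGACG). The Slc8a2 promoter is chr7:16129576-16129875 on the plus strand and the Trpm7 promoter is chr2:126876212-126876511 on the minus strand, both written in the direction of the gene.
Slc8a2: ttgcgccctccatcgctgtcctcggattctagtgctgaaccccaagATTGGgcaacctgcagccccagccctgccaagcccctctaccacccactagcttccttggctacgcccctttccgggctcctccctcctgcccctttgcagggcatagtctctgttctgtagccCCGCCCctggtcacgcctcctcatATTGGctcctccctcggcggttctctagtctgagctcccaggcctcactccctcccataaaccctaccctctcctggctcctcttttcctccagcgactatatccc
Trpm7: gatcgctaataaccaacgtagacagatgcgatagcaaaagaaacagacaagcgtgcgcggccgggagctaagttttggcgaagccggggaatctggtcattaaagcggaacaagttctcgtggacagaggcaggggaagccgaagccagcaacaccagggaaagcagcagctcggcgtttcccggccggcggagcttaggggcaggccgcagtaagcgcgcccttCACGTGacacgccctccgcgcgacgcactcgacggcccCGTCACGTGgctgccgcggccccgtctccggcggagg
The Slc8a2 window holds 1 GC box and 2 CCAAT boxes, and neither an E-box nor a TATA box. The Trpm7 window holds 2 E-boxes, the second of which overlaps its 1 cyclic AMP response core, and no GC box. Among all 32851 promoter windows of that length, 35.66% hold a GC box, 37.41% a CCAAT box, 7.15% an E-box and 20.81% the cyclic AMP response core. These matches describe the letters only. No binding was measured in these mice.

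By the reads that the deposited values return, 17651630 to 21562429 reads lay on genes per B6 mouse, 19042306 to 19433751 per C3H mouse and 16317439 to 17784118 per WSB mouse. The values are FPKM (read fragments divided by gene length in kilobases and by library size, as scaled by the authors), and differences between strains were tested by limma on log2(FPKM + 0.1) with Benjamini-Hochberg adjustment over all genes tested, counting an adjusted p under 0.05 as passed. Neurons and cortex were well represented, with the summed level of 6 neuronal markers between 779.9 and 927.1 FPKM and that of 6 cortical markers between 286.7 and 440.05 FPKM. Some libraries stood apart before any comparison. The summed level of 6 markers of the striatum, a neighbouring region below the cortex, went from 76.97 FPKM in WSB replicate 1 to 431.6 FPKM in B6 replicate 1, and that of 6 markers of the choroid plexus from 64.33 to 765.9 FPKM. Libraries also differed in how their values followed the GC content of transcripts. Over 12995 genes, Spearman's rho between a library's deviation and GC content was 0.51 in C3H replicate 1 and 0.53 in C3H replicate 3, against -0.18 in C3H replicate 2, and -0.47 in B6 replicate 1. None of the markers in these lists was at 0 in any library.

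Across all 9 mice, Slc8a2 was the most abundant of the genes, with a mean of 60.9 FPKM. It encodes the exchanger NCX2, which is found mainly in brain. Asic2 followed with a mean of 17.2 FPKM and Asic1 with 15.1 FPKM, then Asic4 with 7.68 and Slc8a3 with 5.24. The TRPM channels were lowest, with 3.08 FPKM for Trpm2, 2.30 for Trpm7 and 1.72 for Trpm4. Slc8a2 ranked first in each of the 9 libraries, while Asic1 and Asic2 exchanged ranks 2 and 3 between libraries and the order of the TRPM genes was not fixed. No gene was thinly covered. Reads per library went from 129 for Slc8a1 in WSB replicate 2 to 7371 for Slc8a2 in B6 replicate 3.

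**Figure D1:**
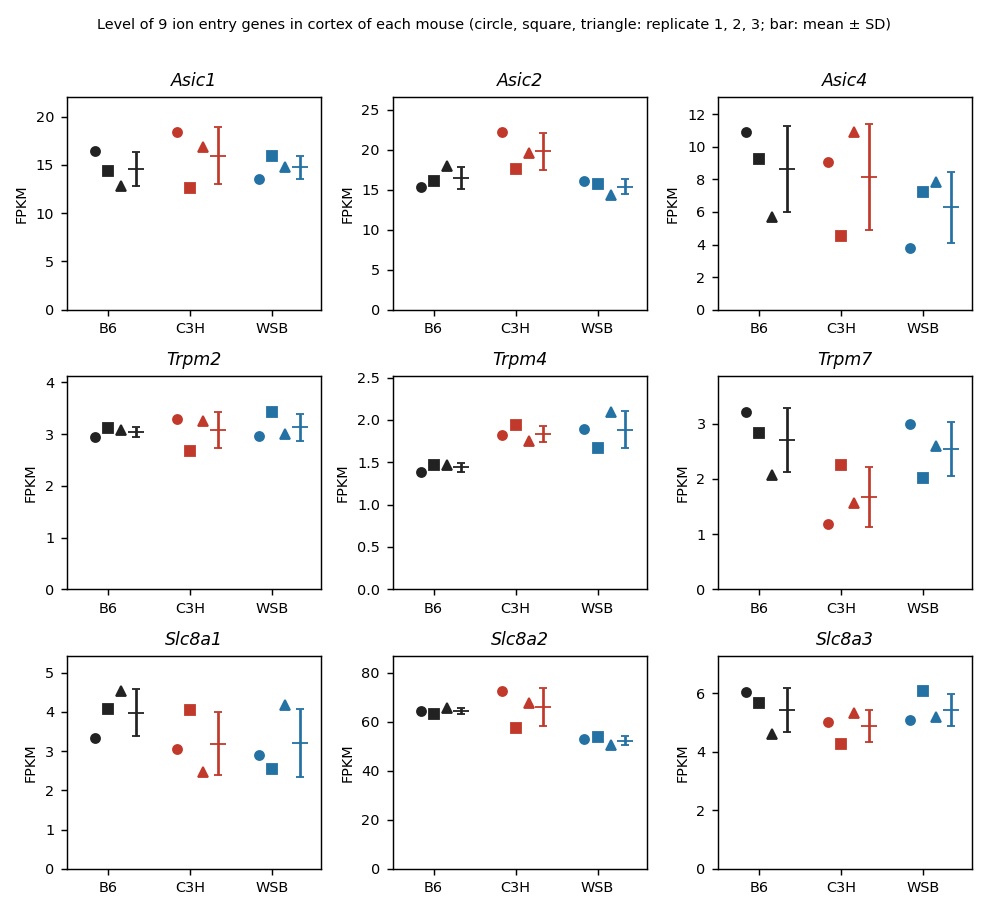
FPKM of each gene (vertical axes, each starting at 0) in each mouse of B6, C3H and WSB, with circles, squares and triangles for replicates 1, 2 and 3 and bars for the mean ± SD of 3 mice. All 3 WSB values of Slc8a2 (50.4 to 53.6) lie under every B6 and C3H value, all 3 B6 values of Trpm4 (1.38 to 1.47) lie under every other value, and the highest value of Asic4 is 2.87 times its lowest.

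The exchanger Slc8a2 was lower in WSB than in B6 and was the only one of the 9 genes to pass the test in any comparison. Its level was 64.5, 63.1 and 65.7 FPKM in the B6 mice, 72.5, 57.4 and 67.8 in the C3H mice and 52.9, 53.6 and 50.4 in the WSB mice, by replicate. The WSB values lay below all 6 values of the other strains, B6 was narrowly spread, and C3H lay on both sides of B6. Means were 64.5 ± 1.3 FPKM (SD, n = 3) in B6, 65.9 ± 7.7 in C3H and 52.3 ± 1.7 in WSB. WSB was 1.23-fold lower than B6, a log2 difference of -0.30 (standard error 0.06, 95% interval -0.44 to -0.16, adjusted p = 0.0304, limma). In that comparison 5.9% of the 20746 genes tested passed and 3.09% passed as lower in WSB, so 1 of 9 genes is a count near the background. The call was lost in each of the 6 fits that left out 1 mouse, where adjusted p went from 0.0663 to 0.106 (limma) with log2 differences from -0.32 to -0.27. It was also lost with all 3 strains in one fit (adjusted p = 0.0699, limma), without the variance trend (adjusted p = 0.121, limma) and with the replicate number as a block (adjusted p = 0.0788, limma). After removal of each library's GC trend, the log2 difference was -0.38 (adjusted p = 0.0234, limma).

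Between WSB and C3H, the difference in Slc8a2 was as large in the values as deposited but did not pass. The log2 difference was -0.33 (95% interval -0.55 to -0.10, adjusted p = 0.0998, limma), and the values of the strains did not overlap, as for 28.6% of the 20607 genes tested. Without C3H replicate 2, the C3H mouse with the lowest Slc8a2, it passed at -0.42 (adjusted p = 0.0215, limma). In that library rho with GC content was -0.18, against 0.51 and 0.53 in C3H replicates 1 and 3. More of all genes passed without that mouse than with it. With all 3 strains in one fit the Slc8a2 difference passed at -0.33 (adjusted p = 0.0473, limma). With the GC trend removed it was -0.26 and did not pass (adjusted p = 0.0798, limma). Between C3H and B6 the log2 difference was 0.03 (95% interval -0.20 to 0.25) as deposited and -0.12 with the GC trend removed, and neither value passed. Markers of oligodendrocytes, the myelin-forming cells, were low in the same mice. Their summed level was 427 to 617 FPKM in WSB against 784 to 982 in B6, all 6 markers had WSB values below every B6 value, and 1 of them, Mobp, passed. Markers of microglia, the immune cells of the brain, were lower in WSB too. Their summed level was 78.6 to 81.02 FPKM in WSB, 82.2 to 92.01 in B6 and 84.7 to 101.1 in C3H, 4 of 6 markers did not overlap between WSB and B6, and 1, Csf1r, passed as lower in WSB. The order of the libraries by Slc8a2 was that of the oligodendrocyte sum in 30 of the 36 pairs of libraries and that of the microglial sum in 29. These were the highest counts for Slc8a2. Among the other marker lists and the GC trend they went from 12 (choroid plexus and hippocampus) to 26 (cortex). The part of either cell type in the Slc8a2 difference was not tested.

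Over the 9 libraries, and among the 13010 genes whose mean reached 1 FPKM, those whose levels on the log2 scale followed Slc8a2 most closely were Tln2 (Pearson's r = 0.99), Slc46a3 (0.98) and Smap2 (0.97). Tln2 encodes talin 2, which links integrins to actin. It had 7.23 ± 0.07 FPKM (SD, n = 3) in B6, 7.29 ± 0.86 in C3H and 5.64 ± 0.33 in WSB. These correlations describe 9 libraries of 3 strains and were the highest of many, with no test.

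The heart-type exchanger Slc8a1 (NCX1) and Slc8a3 (NCX3), which is found in brain and skeletal muscle, passed in no comparison. By replicate, Slc8a1 had 3.33, 4.08 and 4.53 FPKM in B6, 3.06, 4.05 and 2.46 in C3H and 2.91, 2.54 and 4.18 in WSB. The strains overlapped, with coefficients of variation of 15.2% in B6, 25.1% in C3H and 26.8% in WSB. Log2 differences from B6 were -0.32 in WSB (95% interval -0.79 to 0.15) and -0.33 in C3H (-0.79 to 0.13), which leaves room for a level in either strain well below that of B6. In WSB it was -0.17 without WSB replicate 2 and -0.52 without WSB replicate 3, and in C3H it was -0.16 without C3H replicate 3 and -0.51 without C3H replicate 2. The longest annotated transcript of Slc8a1 has a low GC content, 40.24%, and with the GC trend removed on that content the C3H difference was -0.07. That transcript has 18464 bases against the 2934 behind the deposited values. The GC content of the counted part was not computed, so values of Slc8a1 with the GC trend removed carry this limit. The values of Slc8a3 were 6.02, 5.67 and 4.59 FPKM in B6, 5.02, 4.27 and 5.32 in C3H and 5.06, 6.07 and 5.17 in WSB. Again the strains overlapped. For Slc8a3 the log2 difference was 0.01 between WSB and B6 (95% interval -0.30 to 0.31), -0.15 between C3H and B6 (-0.47 to 0.17) and 0.16 between WSB and C3H (-0.13 to 0.44).

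**Figure D2:**
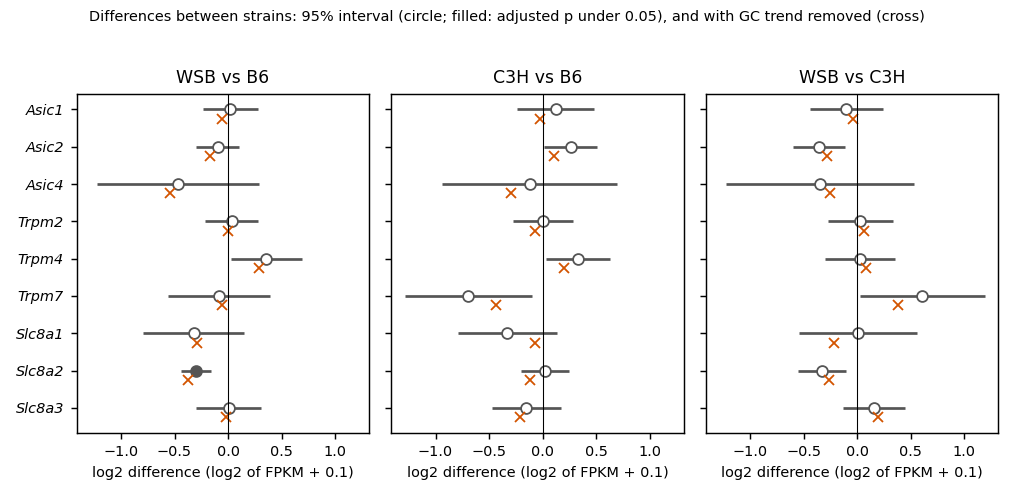
Log2 difference of each gene (horizontal axis, on the log2 of FPKM + 0.1) in the 3 comparisons between strains, as circles with 95% intervals from limma, filled where the adjusted p was under 0.05, and as crosses after removal of each library's GC trend. The single filled circle is Slc8a2 between WSB and B6 at -0.30, and the largest shift from circle to cross is that of Trpm7 between C3H and B6, from -0.70 to -0.44, together with that of Slc8a1 from -0.33 to -0.07.

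Among the TRPM channels, Trpm4 was at its lowest in B6. Its values were 1.38, 1.47 and 1.47 FPKM in B6, 1.83, 1.94 and 1.75 in C3H and 1.89, 1.66 and 2.10 in WSB, by replicate. Every C3H and WSB mouse was above every B6 mouse, while C3H and WSB overlapped. This separation is common, since 26% of all genes tested between WSB and B6 and 28.9% of those tested between C3H and B6 did not overlap. Mean levels were 1.44 ± 0.05 FPKM (SD, n = 3) in B6, 1.84 ± 0.09 in C3H and 1.88 ± 0.22 in WSB. The log2 difference from B6 was 0.36 in WSB (standard error 0.14, 95% interval 0.03 to 0.69, adjusted p = 0.209, limma) and 0.33 in C3H (standard error 0.13, 95% interval 0.03 to 0.63, adjusted p = 0.179, limma). With the GC trend removed these were 0.29 and 0.20, and with a pseudocount of 1 they were 0.24 and 0.22. Neither passed over all genes, and both comparisons use the same 3 B6 libraries. Abcc8 encodes SUR1, a subunit that forms a channel complex with the Trpm4 product after injury of the central nervous system. The 2 genes are near each other on chromosome 7, Trpm4 from 45302632 to 45333780 and Abcc8 from 46104523 to 46180033. The part of a shared chromosomal region in their differences was not tested. Abcc8 had 3.47 ± 0.43 FPKM (SD, n = 3) in B6, 4.45 ± 0.35 in C3H and 4.22 ± 0.46 in WSB. Its log2 differences from B6 were 0.35 in C3H (adjusted p = 0.147, limma) and 0.28 in WSB (adjusted p = 0.292, limma), not past the threshold, and 0.22 and 0.21 with the GC trend removed.

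The channel kinase Trpm7 had the largest difference of the 9 genes as deposited. With the GC trend removed the largest was that of Asic4 between WSB and B6, -0.54, which did not pass. By replicate Trpm7 had 3.22, 2.84 and 2.08 FPKM in B6, 1.18, 2.25 and 1.56 in C3H and 2.997, 2.02 and 2.603 in WSB. C3H replicates 1 and 3 were below all other mice, but C3H replicate 2 was inside the range of B6 and of WSB. The log2 difference between C3H and B6 was -0.70 (standard error 0.25, 95% interval -1.29 to -0.10, adjusted p = 0.161, limma), and between WSB and C3H it was 0.61 (standard error 0.25, 95% interval 0.02 to 1.19, adjusted p = 0.198, limma). Trpm7 has the lowest GC content of the 9 genes, 40.12%. In 34 of the 36 pairs of libraries, the library with the higher rho between deviation and GC content had the lower Trpm7. With that trend removed the differences were -0.44 (adjusted p = 0.201, limma) and 0.38 (adjusted p = 0.246, limma). Between WSB and B6, Trpm7 differed by -0.09 on the log2 scale (95% interval -0.57 to 0.39), a sign that turned without B6 replicate 1 (0.04) or WSB replicate 2 (0.06).

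Trpm2, the oxidative-stress channel, was the most even of the genes. It had 2.94, 3.12 and 3.08 FPKM in B6, 3.29, 2.68 and 3.25 in C3H and 2.96, 3.43 and 2.997 in WSB. The highest library was 1.28-fold above the lowest. No comparison passed, with log2 differences of 0.03 (95% interval -0.22 to 0.28) between WSB and B6, 0.01 (-0.28 to 0.29) between C3H and B6 and 0.03 (-0.28 to 0.33) between WSB and C3H. The widest of these intervals reaches 0.33. Parp1, which encodes the main nuclear enzyme that makes the poly(ADP-ribose) behind ADP-ribose, had 19.3 ± 2.1 FPKM (SD, n = 3) in B6, 19.2 ± 0.5 in C3H and 17.1 ± 0.9 in WSB, and passed in no comparison.

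The acid-sensing channels Asic1 and Asic2 stood at similar levels. Asic1 encodes the subunit most tied to acid currents of neurons, and its values were 16.4, 14.4 and 12.9 FPKM in B6, 18.4, 12.6 and 16.9 in C3H and 13.5, 15.9 and 14.8 in WSB. The range of C3H contained that of each other strain. The log2 difference was 0.02 between WSB and B6 (95% interval -0.23 to 0.28), 0.12 between C3H and B6 (-0.24 to 0.48) and -0.10 between WSB and C3H (-0.44 to 0.24). Asic2 encodes a subunit that joins with the Asic1 product in mixed channels. It had 15.4, 16.1 and 18.0 FPKM in B6, 22.2, 17.6 and 19.7 in C3H and 16.1, 15.7 and 14.4 in WSB. All 3 C3H mice were above all 3 WSB mice, and B6 overlapped both. Between WSB and C3H, 28.6% of all genes tested did not overlap.

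Between WSB and C3H the log2 difference of Asic2 was -0.36 (standard error 0.10, 95% interval -0.60 to -0.12, adjusted p = 0.0935, limma). Without C3H replicate 2, the C3H mouse without a high rho with GC content, it was -0.44 and passed (adjusted p = 0.0369, limma). With the GC trend removed it was -0.28 and did not pass (adjusted p = 0.130, limma). Between C3H and B6 it was 0.26 (95% interval 0.01 to 0.51, adjusted p = 0.191, limma), and 0.10 with the GC trend removed. The transcript of Asic2 has a GC content of 59.78%, and that of Asic1 58.29%. In WSB, Asic2 was -0.10 from B6 on the log2 scale (95% interval -0.30 to 0.10).

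Asic4, whose product by itself gives little or no acid-gated current, varied more between mice of one strain than any other of the 9 genes. It had 10.9, 9.24 and 5.71 FPKM in B6, 9.04, 4.52 and 10.9 in C3H and 3.79, 7.20 and 7.83 in WSB, by replicate. The spread within a strain was 30.7% of the mean in B6, 40.2% in C3H and 34.6% in WSB. The strains overlapped, with log2 differences of -0.47 between WSB and B6 (95% interval -1.22 to 0.29), -0.12 between C3H and B6 (-0.94 to 0.70) and -0.35 between WSB and C3H (-1.23 to 0.53). Single mice moved these values. Between WSB and B6 it was -0.15 without WSB replicate 1, -0.28 without B6 replicate 1 and -0.74 without B6 replicate 3. Between C3H and B6 it went from -0.39 without B6 replicate 3 to 0.25 without C3H replicate 2, and was -0.29 with the GC trend removed. Between WSB and C3H it went from -0.72 without C3H replicate 2 to -0.03 without WSB replicate 1. Intervals this wide include a halving and no difference alike for WSB. Asic4 shares 493 exonic bases with Gm37264 on the opposite strand, which had at most 0.331 FPKM in any library, and whether counting used the strand is not stated.

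The order of the mice by Asic4 followed the striatal markers. In B6 the 6 markers summed to 431.6, 235.8 and 104.5 FPKM in replicates 1, 2 and 3, in C3H to 183.1, 98.07 and 264.2, and in WSB to 76.97, 155 and 208.3. Within each of the 3 strains the order was the same as that of Asic4, and 35 of the 36 pairs of libraries had the same order. This list and the GC trend of Trpm7 were singled out after the values were seen. For the other 97 combinations of a gene with a marker list or the GC trend, between 6 and 31 of the 36 pairs had the same order. The striatal list includes Drd1, Drd2 and Adora2a, receptors of striatal projection neurons, and none of its genes passed between any strains. Its part in the spread of Asic4 was not tested.

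**Figure D3:**
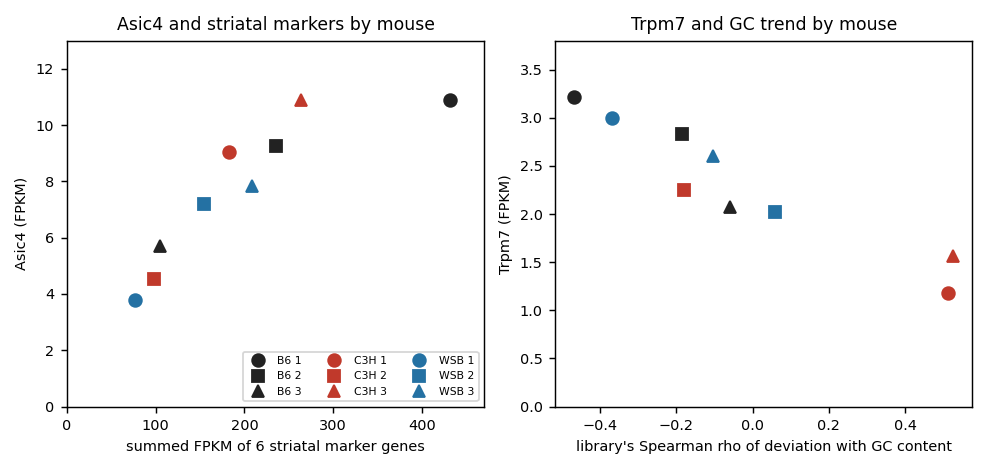
Left, Asic4 (FPKM) against the summed FPKM of 6 striatal marker genes in each mouse. Right, Trpm7 (FPKM) against Spearman's rho between each library's deviation and transcript GC content. Colours are strains and symbols replicates. Asic4 climbs from 3.79 FPKM at 76.97 FPKM of striatal markers to 10.9 at 431.6, and Trpm7 is lowest, 1.18 and 1.56 FPKM, in the C3H libraries with rho of 0.51 and 0.53.

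Over the list, 1 of 9 genes passed between WSB and B6, as lower, and none between C3H and B6 or between WSB and C3H. By limma with voom weights the counts were also 1, 0 and 0. At an unadjusted p under 0.05 the limma counts were 2, 3 and 3 of 9, where 20.4%, 24.1% and 23.8% of all genes tested stood. With the GC trend removed they were 1, 0 and 0, where 6.55%, 5.29% and 7.15% of all genes passed. Over all genes 4.64% of the 20602 tested passed between C3H and B6 and 5.74% of the 20607 tested between WSB and C3H. The signs were mixed, with 4 of 9 genes above B6 in WSB and 5 of 9 in C3H, where 50.3% and 49.6% of all genes tested were above B6. The median log2 difference of the 9 genes was -0.09, 0.01 and 0.01 in the comparisons of WSB with B6, C3H with B6 and WSB with C3H, and the median of its size was 0.10, 0.15 and 0.16 against 0.21, 0.25 and 0.25 over all genes tested.

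Other genes were examined as fixed lists of 52 genes, which hold transporters and channels for sodium, calcium, protons, bicarbonate and chloride, and also 10 partners of the channels, among them enzymes such as Parp1. Of these, 1 of the 45 tested between WSB and B6 passed, 1 of the 46 between C3H and B6, and 2 of the 46 between WSB and C3H. These shares, 2.2%, 2.2% and 4.3%, were below the 5.9%, 4.64% and 5.74% of all genes tested that passed. The gene that passed against B6 in both strains was Slc24a2, which encodes NCKX2, a potassium-dependent sodium-calcium exchanger of neurons. Slc24a2 (ENSMUSG00000037996, chromosome 4, 86983124 to 87230477) had 33.7, 29.6 and 30.9 FPKM in B6, 14.6, 22.0 and 15.4 in C3H and 23.2, 18.0 and 22.7 in WSB. Every C3H and WSB mouse was below every B6 mouse. Of all genes tested, 28.9% did not overlap between C3H and B6 and 26% between WSB and B6. The log2 difference of Slc24a2 from B6 was -0.87 ± 0.15 (standard error) in C3H, with an adjusted p of 0.0215 (limma). In WSB it was -0.56 ± 0.11, with an adjusted p of 0.0289 (limma), against the same 3 B6 libraries. With the GC trend removed these were -0.72 (adjusted p = 0.00719, limma) and -0.57 (adjusted p = 0.0117, limma). The call was lost without the variance trend in both comparisons (adjusted p = 0.0804 for C3H and 0.0919 for WSB, limma), with the replicate block for C3H (0.0641) and with all 3 strains in one fit for WSB (0.0637). It passed in 1 of the 6 fits that left out 1 mouse for C3H, the one without C3H replicate 2, and in 2 of 6 for WSB, without WSB replicate 1 or 2. In the other fits adjusted p reached at most 0.0880 for C3H and 0.0911 for WSB (limma).

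The genes that passed between WSB and C3H were Slc24a5 and Slc4a4, both higher in WSB. Slc24a5 encodes NCKX5, known for its role in pigment cells. It had 1.39, 1.06 and 1.05 FPKM in B6, 0.55, 0.62 and 0.35 in C3H and 1.39, 1.02 and 1.198 in WSB, a log2 difference of 1.11 between WSB and C3H (adjusted p = 0.0453, limma). B6 stood with WSB, and the 3 C3H values were below all others. The bicarbonate cotransporter Slc4a4, which brings bicarbonate and sodium into astrocytes, had 13.9, 12.998 and 11.8 FPKM in B6, 9.38, 10.6 and 9.75 in C3H and 13.1, 13.003 and 12.6 in WSB. The log2 difference was 0.38 between WSB and C3H (adjusted p = 0.0359, limma). Each of these calls was kept in 1 of the 6 fits that left out 1 mouse, the one without C3H replicate 2. Adjusted p reached 0.153 for Slc24a5 and 0.136 for Slc4a4 in the others (limma). Without the variance trend both were lost (adjusted p = 0.0563 for Slc24a5 and 0.0975 for Slc4a4, limma), as they were with the replicate block (0.110 and 0.120). Slc24a5 was also lost with a pseudocount of 0.01 (adjusted p = 0.0509, limma) and with no filter (0.0905).

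**Figure D4:**
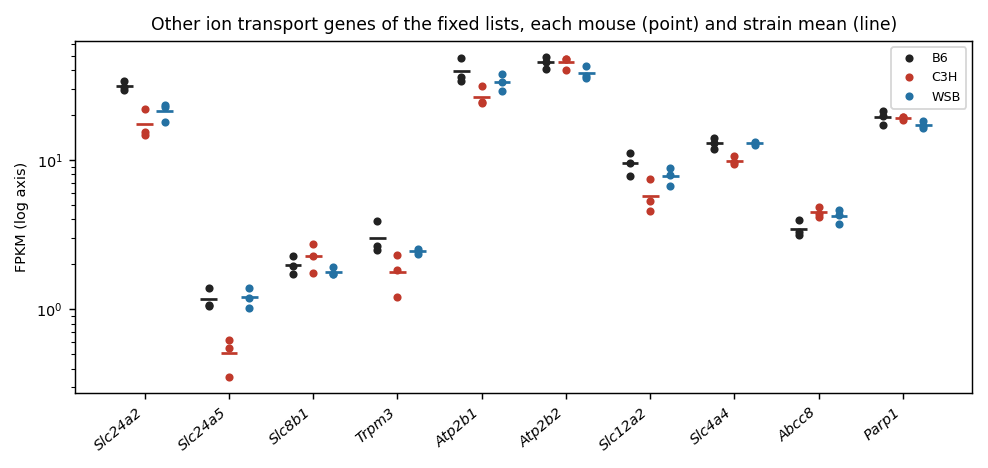
FPKM (vertical axis, log scale) of 10 other ion transport genes and partners, with a point for each mouse and a line for the mean of each strain. Slc24a2 is highest in B6 (mean 31.4 FPKM) and lower in C3H (17.4) and WSB (21.3), and Slc24a5 is lowest in C3H (0.51).

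None of the 8 sodium-proton exchangers tested, which export protons in exchange for sodium, passed in any comparison by limma. At an unadjusted p under 0.05 the counts were 0 between WSB and B6, 1 between C3H and B6 and 0 between WSB and C3H. Among the pumps that restore the gradients, 0 of 6 calcium pumps tested between WSB and B6 and 0 of 7 between C3H and B6 passed by limma, with 1 each at an unadjusted p under 0.05. The plasma membrane pump Atp2b1 had 39.4 ± 7.9 FPKM (SD, n = 3) in B6, 26.6 ± 4.0 in C3H and 33.3 ± 4.5 in WSB, and Atp2b2 had 45.1 ± 4.3, 45.1 ± 4.1 and 38.1 ± 3.9 in the same order. The chloride importer Slc12a2 (NKCC1), which carries sodium in, had 9.49 ± 1.7 FPKM (SD, n = 3) in B6, 5.74 ± 1.5 in C3H and 7.85 ± 1.1 in WSB, a log2 difference of -0.73 between C3H and B6 that did not pass (adjusted p = 0.0903, limma).

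The remaining genes of the channel families were scarce or did not pass. Asic3, an acid sensor of sensory neurons, had 2 to 12 reads per library and passed in no comparison, and Asic5 was under the limit of a mean of 0.1 FPKM set for testing. Of the 5 other TRPM genes, 2 were tested, and 0 passed in any comparison by limma (1 at an unadjusted p under 0.05 between C3H and B6, 0 in each of the others). Trpm3, a heat- and steroid-sensitive calcium channel that is also abundant in the choroid plexus, had 3.02 ± 0.78 FPKM (SD, n = 3) in B6, 1.79 ± 0.56 in C3H and 2.44 ± 0.11 in WSB. All 3 C3H values were below those of both other strains, though the highest C3H value, 2.324 FPKM, was close to the lowest of WSB, 2.329. Of all genes tested, 28.9% did not overlap between C3H and B6 and 28.6% between WSB and C3H. The log2 difference of Trpm3 from B6 in C3H, -0.74, did not pass (adjusted p = 0.150, limma). Slc8b1, the mitochondrial sodium-calcium exchanger, had 1.99 ± 0.28 FPKM (SD, n = 3) in B6, 2.26 ± 0.50 in C3H and 1.79 ± 0.12 in WSB and passed in no comparison.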

How the data were processed

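Cortex mRNA of 9 mice was sequenced with paired-end reads. The authors trimmed adapters with Cutadapt and counted reads on genes with HTSeq, and the submitters' processing notes also name STAR and DESeq2. Versions and the genome build are not given in the sources used here. The deposited FPKM values hold 1 column per mouse, and whether counting used the strand is not stated. Multiplied by gene length, 100% of the values above 0 were whole multiples of 1 step per library (tolerance 0.001), which returns the reads on each gene. No column of values was left unused.

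Strains were compared in pairs by limma 3.58.1 in R 4.3.3 (two-sided, with eBayes fitting a variance trend). It used log2(FPKM + 0.1) of genes averaging 0.1 FPKM or more over the 6 libraries compared, with Benjamini-Hochberg adjustment. Intervals and p-values rest on the spread between 3 mice per strain, after eBayes moved each gene's variance toward a trend over all genes tested. The authors' test needs counts, so it was not repeated. The GC trend was removed by a spline with 5 degrees of freedom on the GC content of the longest GENCODE M21 transcript, known for 54409 genes. The fit was tested on simulated data.

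All 9 genes are reported in every library. From the fixed lists of other transport genes and partners, the text names each gene that passed and a preset set of others, 2 of which are not reported here, and for the member that passed the 3 genes most like it. Members and lists were chosen with earlier results of these data known. Figures were drawn with matplotlib 3.10.9.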

Additional observations from a re-analysis of the deposited data

How the results depend on the processing

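Alternatives changed the pseudocount (1 or 0.01), the filter (none or 1 FPKM), the scaling (median ratios or total reads) and the fit: the 3 strains together, eBayes with no variance trend, voom weights on recovered reads, the replicate number as a block, removal of the GC trend, and leaving out each mouse. Of 655 differences of named genes recomputed without leaving out a mouse, 623 kept their sign and side of the threshold, and of 359 with a mouse left out, 292 did. For the changes listed here the cause was not tested. Reads per library for the 9 genes went from 129 to 7371, and the part of depth in the errors was not tested.

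The count of the 9 genes between WSB and B6 fell from 1 to 0 with all 3 strains in one fit, without the trend, with the block and in all fits without 1 mouse (from 0 to 0). Between WSB and C3H it was 1 with all 3 strains in one fit and from 0 to 2 without 1 mouse, where 2 came without C3H replicate 2. Replicate numbers did not pair the mice: correlations of same-numbered deviations went from -0.157 to 0.037, and 2 of 18 comparisons had the highest value at their own number. With the block, 754 of all genes were called between WSB and B6 (1224 without it), 480 between C3H and B6 (956) and 531 between WSB and C3H (1182). Voom weights called 1488 between C3H and B6. Without 1 mouse the counts went from 651 to 825, from 498 to 2301 and from 475 to 2002, and the counts of 2301 and 2002 came without C3H replicate 2.

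Signs turned only for differences that did not pass. With the GC trend removed, the difference between WSB and B6 became -0.054 for Asic1, -0.0048 for Trpm2 and -0.021 for Slc8a3. Between C3H and B6 it became -0.024 for Asic1, -0.074 for Trpm2, -0.12 for Slc8a2, -0.085 for Asic3 and -0.050 for Atp2b2, and between WSB and C3H -0.22 for Slc8a1. Rescaling to total reads gave -0.0063 for Trpm2 and -0.013 for Atp2b2 between C3H and B6, and voom weights gave -0.0021 for Asic3. Leaving out 1 mouse gave ranges that crossed 0. Between WSB and B6 these were -0.26 to 0.064 for Trpm7, -0.063 to 0.16 for Slc24a5, -0.065 to 0.11 for Asic1, -0.11 to 0.085 for Slc8a3, -0.060 to 0.061 for Slc4a4 and -0.033 to 0.071 for Trpm2. Between C3H and B6 they were -0.39 to 0.25 for Asic4, -0.045 to 0.10 for Trpm2, -0.16 to 0.31 for Asic3, -0.072 to 0.079 for Atp2b2, -0.091 to 0.064 for Parp1 and -0.046 to 0.12 for Slc8a2. Between WSB and C3H they were -0.26 to 0.010 for Asic1, -0.19 to 0.19 for Slc8a1, -0.066 to 0.079 for Trpm2, -0.049 to 0.11 for Trpm4 and -0.15 to 0.0065 for Abcc8.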
